A study of Rattus norvegicus with 90 samples.

Results

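The data described here are 10 of the 90 liver libraries of a rat study of Nafion byproduct 2 (NBP2), a fluorinated acid that arises when the polymer Nafion is made. They are the maternal livers taken at gestation day 18 (GD18) after 10 mg/kg/d (4 dams) and after 0 mg/kg/d (6 control dams), chosen by the age, tissue and dose in the labels. All dams were rats of the Sprague-Dawley stock Crl:CD(SD), time-mated at about 90 days of age, dosed by mouth from GD14 to GD18 and decapitated 2 to 4 h after the last dose. The control group is labelled only as control, with no vehicle named. Dams came in study blocks 140 and 143, with 3 controls and 2 dams at 10 mg/kg/d in each block. Each library is the liver of 1 dam. Transcripts were counted by TempO-Seq, in which pairs of detector probes are ligated on the RNA and sequenced, so that a count reflects the short stretch under the probes and not the whole transcript. Of 20833 genes in the deposited table, 13783 passed the filter on low counts over the 30 maternal GD18 libraries of all doses and were tested.

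The liver senses foreign and lipid-like compounds through nuclear receptors. CAR (Nr1i3) and PXR (Nr1i2) bind DNA with the partner RXR and switch on cytochrome P450 enzymes of the Cyp2b and Cyp3a families, together with epoxide hydrolase, conjugating enzymes and transporters. PPAR-alpha (Ppara) does the same for genes of fatty acid oxidation, among them Acot1, Ehhadh and Vnn1. In rat liver, Cyp2b1 and Cyp2b2 are the textbook targets of phenobarbital through CAR, and Cyp3a23/3a1 is the textbook target of pregnane steroids through PXR.

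The sequences before the annotated starts of the 3 enzymes on which the comparison turns are shown because 2 of them are near copies of each other and the third holds a receptor motif. They are from RefSeq, build GRCr8, 5′ to 3′ on the gene's strand, and all 3 symbols matched. Over the 233 bases that line up without gaps, Cyp2b1 (chr1:90645886-90646118, plus strand) and Cyp2b2 (chr1:90722031-90722263, plus strand) are equal at 225, which is 96.6%, and capitals mark the 8 bases that differ. In Cyp3a23-3a1 (chr12:14398804-14399053, minus strand), the RefSeq symbol for Cyp3a23/3a1, capitals mark the half-sites of a direct repeat.
Cyp2b1: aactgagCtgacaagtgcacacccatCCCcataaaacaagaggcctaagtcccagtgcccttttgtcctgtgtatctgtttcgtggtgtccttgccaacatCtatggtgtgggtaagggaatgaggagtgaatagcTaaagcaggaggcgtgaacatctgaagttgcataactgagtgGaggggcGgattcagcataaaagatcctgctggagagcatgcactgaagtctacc
Cyp2b2: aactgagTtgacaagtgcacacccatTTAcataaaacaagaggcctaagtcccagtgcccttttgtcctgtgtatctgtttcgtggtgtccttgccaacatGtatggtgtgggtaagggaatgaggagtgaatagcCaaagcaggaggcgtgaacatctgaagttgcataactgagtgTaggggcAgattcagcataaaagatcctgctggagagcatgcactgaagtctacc
Cyp3a23-3a1: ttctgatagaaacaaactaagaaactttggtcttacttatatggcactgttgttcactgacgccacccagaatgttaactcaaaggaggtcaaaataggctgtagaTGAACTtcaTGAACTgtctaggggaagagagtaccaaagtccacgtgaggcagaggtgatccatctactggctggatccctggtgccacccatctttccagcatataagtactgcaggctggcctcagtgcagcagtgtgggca

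The repeat in Cyp3a23-3a1 is 2 copies of TGAACT spaced by 3 bases (DR3), from 144 to 130 bases before the start. DR3, with TGAACT or TGACCT as each half-site and read on both strands, was found in 13 of 33469 windows of 250 bases before a start (0.0388%). The same half-sites spaced by 4 bases (DR4) were in 5 windows (0.0149%), and as an everted repeat spaced by 6 (ER6) in 10 (0.0299%). Neither Cyp2b window held any of these 3 motifs. Sequence more than 250 bases before the start and other half-sites were not searched, so this does not show whether the Cyp2b genes have such motifs. A match of letters is a description of the window and not a bound site. In the build of the deposited table, rn6, Cyp2b1 is placed on chromosome 7 (99142450 to 99181784) and Cyp2b2 on chromosome 1 (83103925 to 83119194). How reads were divided between the near copies is not given in the sources used here, so the split between Cyp2b1 and Cyp2b2 is uncertain.

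At 10 mg/kg/d the clearest change in maternal liver was a rise of the inducible P450 enzymes. With edgeR's quasi-likelihood test and Benjamini-Hochberg adjustment, 6 of 13783 genes (0.0435%) passed an adjusted p of 0.05, of which 4 were higher (0.029%) and 2 were lower (0.0145%). The higher genes were Cyp2b2, Cyp2b1, Cyp3a23/3a1 and AABR07035374.1, a gene model inside the interval of Cyp3a23/3a1. The lower genes were LOC499219 and Olr1369, an olfactory receptor gene, both with 35 counts or less in each of the 10 libraries. All 4 higher genes had every treated library above every control, which held for 31 of the genes tested (0.225%).

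Cyp2b2 showed the largest change among the genes called. In CPM (counts scaled to the library total), the 6 controls ran from 0.119 through a median of 6.16 to 23.1, and the treated dams had 305 (dam 2080), 116 (dam 2081), 400.2 (dam 2125) and 106 (dam 2126). The lowest treated liver thus lay above the highest control. The fitted log2 fold change was 5.15 ± 0.89 (SE), a fold of 35.5, with an edgeR adjusted p of 0.0167. The controls themselves differed by block: those of block 140 had 0.283, 2.00 and 0.119 CPM, and those of block 143 had 10.3, 22.2 and 23.1 CPM. The size of the fold therefore depended on the block, with a log2 fold change of 8.07 ± 1.65 in block 140 alone and 3.80 ± 0.69 in block 143 alone. The block 140 controls had estimated counts of 1.72, 12.8 and 0.727 for Cyp2b2 and 176, 404 and 210 for Cyp2b1, its near copy. Both genes have counts that are not whole in 89 of the 90 libraries, so reads of the pair may be shared. The part of that division in the fold of Cyp2b2 and in its block difference was not tested.

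Cyp2b1 had 3.17 to 63.0 CPM in the controls, with a median of 31.7. The treated dams had 319 (dam 2080), 186 (dam 2081), 328 (dam 2125) and 107 (dam 2126) CPM, again with no overlap between the groups. The log2 fold change was 2.96 ± 0.51, a fold of 7.76, with an edgeR adjusted p of 0.0167. Dams 2080 and 2125 were high and dams 2081 and 2126 low for both Cyp2b genes, in each block. Within block 140 the log2 fold change was 2.75 ± 0.41 and within block 143 it was 3.38 ± 0.92.

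Cyp3a23/3a1, which oxidises steroids and drugs, had 92.5 to 172 CPM in the controls, with a median of 143. The treated dams had 389 (dam 2080), 342 (dam 2081), 1719 (dam 2125) and 300.1 (dam 2126) CPM. All 4 lay above every control, and dam 2125 stood well above the other 3. The log2 fold change was 2.29 ± 0.40, a fold of 4.90, with an edgeR adjusted p of 0.0167. Without dam 2125 it was 1.38 with an edgeR adjusted p of 0.328. Over all alternatives the adjusted p of this gene ran from 0.0013 to 0.722. The lowest came from DESeq2 and the highest from block 143 alone.

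AABR07035374.1 lies at 11663683 to 11677831 on chromosome 12 of rn6, on the minus strand, within the interval 11655402 to 11733137 of Cyp3a23/3a1 on the same strand. It had 14.8 to 41.8 CPM in the controls and 77.3, 68.4, 352 and 56.3 CPM in the treated dams, in the same order of dams. Its level was 0.137 to 0.243 of that of Cyp3a23/3a1 in the controls and 0.188 to 0.205 of it in the treated dams. The fold change, 2.22 ± 0.41 on the log2 scale with an edgeR adjusted p of 0.0261, is therefore not counted here as a separate response: both genes have estimated counts that are not whole in 71 of the 90 libraries, and reads of the pair may be shared.

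**Figure D1:**
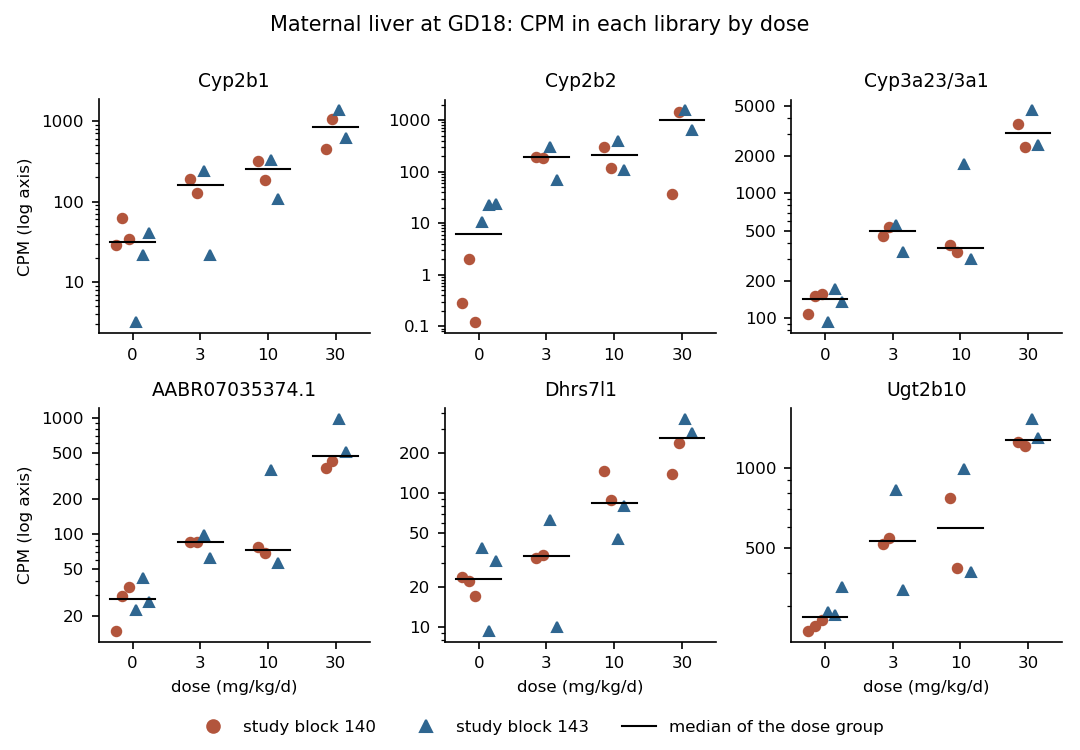
CPM on a log axis in each maternal GD18 library by dose (0, 3, 10 and 30 mg/kg/d), for the 4 genes that rose at 10 mg/kg/d and for Dhrs7l1 and Ugt2b10; points are libraries, shape and colour give the study block, and lines are medians of a dose group. In all 6 panels the libraries at 10 mg/kg/d lie above every control, and the values at 3 and 10 mg/kg/d overlap.

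These calls rested on few libraries and on the shared spread of all doses. Leaving out each of the 10 libraries in turn kept the direction of all 6 genes, while Cyp2b2 stayed past the threshold in 6 of 10 such fits, Cyp2b1 in 7, Cyp3a23/3a1 in 5 and AABR07035374.1 in 4. The values lost lay mostly just outside it: without control dams 2114 or 2115 the edgeR adjusted p of Cyp2b2, Cyp2b1 and Cyp3a23/3a1 was 0.0512 to 0.0602, and without dam 2125 it was 0.0766 for Cyp2b2 and 0.129 for Cyp2b1. The call was also lost without control dam 2070 for Cyp2b2 (0.0672) and Cyp3a23/3a1 (0.0563), and without control dam 2116 for Cyp3a23/3a1 (0.0522). No gene was called without the study block term or in either block alone, and the 10 libraries fitted by themselves called 1 gene, Cyp2b2, with an edgeR adjusted p of 0.0397.

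Below the threshold, Dhrs7l1, Ugt2b10 and Anpep had every treated liver above every control, as 0.225% of all genes tested did. Dhrs7l1, of the short-chain dehydrogenase family, had 9.32 to 38.8 CPM in the controls, with a median of 22.9, and 146, 89.1, 45.3 and 79.8 CPM in dams 2080, 2081, 2125 and 2126. Its log2 fold change was 1.86 ± 0.47, with an edgeR adjusted p of 0.295. Here dam 2125, the highest for Cyp3a23/3a1, was the lowest of the 4. Ugt2b10, a glucuronidating enzyme, had 242 to 353 CPM in the controls, with a median of 273, and 769, 417, 992 and 403 CPM in the treated dams. Its log2 fold change was 1.21 ± 0.29, with an edgeR adjusted p of 0.175, and without dam 2126 it was 1.53 with an adjusted p of 0.0345, the lowest over its alternatives, which reached 1.00. Anpep, a cell-surface aminopeptidase, had 13.1 to 20.8 CPM in the controls and 31.7, 31.2, 46.7 and 21.3 CPM in the treated dams, a log2 difference of 0.99 ± 0.25 with an edgeR adjusted p of 0.289.

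Ephx1, the microsomal epoxide hydrolase and a classic CAR target, was close to the threshold. The controls had 75.9 to 127 CPM, with a median of 94.7, and the treated dams had 186 (dam 2080), 128 (dam 2081), 222 (dam 2125) and 122 (dam 2126) CPM. Dam 2126 lay within the control range and the other 3 above it. The log2 fold change was 0.76 ± 0.17, with an edgeR adjusted p of 0.104. DESeq2 gave an adjusted p of 0.0398 for it, within a range of 0.0240 to 1.00 over all alternatives.

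Among the 3 lists of CAR and PXR targets, 30 members were tested and 3 were called, against 0.0435% of all genes, all 3 being the P450 enzymes above. Members and lists were chosen with earlier results of these data known, so this count is a description and not independent support. The P450 list had 15 entries, of which 12 were in the file and 11 passed the filter. Its median log2 fold change was −0.11, against −0.10 over all genes tested and 0.02 over genes of at least 3 mean log2 CPM. The count thus came from 3 strongly changed members and not from a shift of the list. Cyp2c6v1, a constitutive P450, had 2113 to 3175 CPM in the controls and 3946, 2886, 5607 and 3649 CPM in the treated dams, a log2 fold change of 0.63 ± 0.18 with an edgeR adjusted p of 0.396. Cyp3a9 differed by 0.49 ± 0.27. Cyp2b12 had 2.84 CPM or less in all 10 libraries and gives no usable direction.

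In the list of other CAR and PXR enzymes, 14 of 26 entries passed the filter and none was called, with a median log2 fold change of 0.33. At an unadjusted p under 0.05, 5 of the 14 were higher and 1 was lower, where over all genes 155 were higher (1.12%) and 1184 lower (8.59%). Among the 5995 genes of at least 3 mean log2 CPM, 124 were higher and 119 lower at that level. Aldh1a1, which makes retinoic acid, had 307 to 529 CPM in the controls and 812, 567, 618 and 514 CPM in the treated dams. Its log2 fold change was 0.69 ± 0.21, with an edgeR adjusted p of 0.396. Ces2a, a carboxylesterase, had 97.5 to 401 CPM in the controls and 496, 573, 644 and 272 CPM in the treated dams. None of the 5 transporters tested was called, and all 5 had a positive sign, with log2 differences from 0.04 to 0.32. Slco1a4, which takes up organic anions, had 84.9 to 189 CPM in the treated dams and 76.1 to 138 CPM in the controls, which overlap.

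The 1 lower enzyme in that list was Sult2a1, which sulfates hydroxysteroids and bile acids; it is named because it stood apart after its values were seen. The treated dams had 423, 439, 445 and 479 CPM, a narrow range. The controls had 507, 3758, 3415, 2929, 4080 and 474 CPM, so 2 of them lay beside the treated dams and 4 lay far above. Low and high values recurred at 30 mg/kg/d, with 6215, 455, 4626 and 551 CPM. The log2 difference at 10 mg/kg/d was −2.47 ± 0.79, with an edgeR adjusted p of 0.396.

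The receptors and the redox partner of these enzymes were not called. Nr1i2 had 161 to 204 CPM in the controls and 153 to 250.2 CPM in the treated dams, a log2 difference of 0.14 ± 0.12. Nr1i3 was near the limit of detection, at 0.549 to 2.78 CPM in the controls and 0.370 to 3.71 CPM in the treated dams. Por, which passes electrons to P450 enzymes, had 0.621 to 1.63 CPM in the controls and 1.30 to 2.19 CPM in the treated dams, and its log2 difference of 0.67 ± 0.36 had an edgeR adjusted p of 0.558. Because the labels say that signals of abundant transcripts were damped in the assay, levels were not compared between genes, with these exceptions. The ratio of the overlapping pair on chromosome 12 was compared between libraries, and counts of Cyp2b1 and Cyp2b2 were set side by side.

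Genes of fatty acid oxidation differed by little at this dose, more often upward than downward. Of 22 PPAR-alpha lipid targets that passed the filter, none was called, and the median log2 fold change was 0.14. At an unadjusted p under 0.05, 5 were higher and none lower, where over all genes 1.12% were higher and 8.59% lower. Among the 5995 genes of at least 3 mean log2 CPM, 124 were higher and 119 lower at that level. Ehhadh, the bifunctional enzyme of peroxisomal beta-oxidation, had 36.6 to 59.2 CPM in the controls and 88.6, 62.0, 63.6 and 60.4 CPM in the treated dams. These groups did not overlap, yet 60.4 is next to the highest control, and the log2 fold change was 0.59 ± 0.23 with an edgeR adjusted p of 0.434. Acot2, a mitochondrial acyl-CoA thioesterase, had 3.98 to 5.65 CPM in the controls and 6.12, 5.96, 10.1 and 9.27 CPM in the treated dams. Mlycd, which removes malonyl-CoA, had 20.3 to 31.5 CPM in the controls and 31.9 to 39.2 CPM in the treated dams, a log2 difference of 0.50 ± 0.16 with an edgeR adjusted p of 0.396. Vnn1, a pantetheinase, had 15.7 to 26.3 CPM in the controls and 32.6, 18.2, 49.3 and 42.8 CPM in the treated dams, so dam 2081 lay within the controls.

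Acot1, a cytosolic thioesterase, had 0.183 to 1.98 CPM in the controls and 0.437, 0.175, 0.354 and 1.11 CPM in the treated dams. The log2 difference of −1.07 ± 1.25 was within its error. Cyp4a1, which hydroxylates fatty acids, differed by 0.40 ± 0.21, Pdk4 by 0.26 ± 0.31, Cpt1a by 0.23 ± 0.31 and Ppara itself by −0.16 ± 0.26. At an unadjusted p under 0.05, 2 of the 23 mitochondrial beta-oxidation genes tested and 5 of the 24 peroxisomal genes were higher. Over all genes 1.12% were higher, and of the 5995 genes of at least 3 mean log2 CPM 124 were. The list medians were 0.19 and 0.12, and no member was called.

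The other lists held no called gene. In all, 19 of the 20 biology lists had none. Cholesterol biosynthesis had a median log2 fold change of 0.25 over 17 tested members, of which 14 had a positive sign. Cyp51, the sterol demethylase, had 425 to 636 CPM in the controls and 1217 (dam 2080), 545 (dam 2081), 599 (dam 2125) and 611 (dam 2126) CPM in the treated dams, so 1 dam stood apart. The cell cycle list had a median of −0.33 over 16 tested members, of which 14 had a negative sign. The median was −0.10 over all genes and 0.02 over genes of at least 3 mean log2 CPM. Erythroid markers had the same direction, with a median of −0.52 over 11 tested members, and control dam 2070, with their highest sum, also had the most Aurka, a mitotic kinase, at 12.0 CPM against 6.54 CPM or less in the other controls. Of the 1184 genes lower at an unadjusted p under 0.05 over all genes, 1065 had a mean log2 CPM under 3. The parts of erythroid cells and of low counts in the cell cycle values were not tested. Fatty acid and triglyceride synthesis had a median of −0.20 with 13 of 16 negative, although Acss2 was at 0.55 ± 0.20. Slc2a2, the glucose transporter of hepatocytes, had 42.6 to 69.9 CPM in the controls and 44.6, 39.4, 34.3 and 28.7 CPM in the treated dams, a log2 difference of −0.61 ± 0.17 with an edgeR adjusted p of 0.379. C4a, a complement gene, differed by 0.81 ± 0.24 with an edgeR adjusted p of 0.396. Lists of bile acid, urea cycle, thyroid and growth hormone, NRF2 and AhR genes had medians between 0.01 and 0.21.

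Among genes of at least 3 mean log2 CPM with every treated dam below every control, 8 were lowest, and none was called. Over all genes tested, 34 were below in this way (0.247%). AABR07021384.1 had 15.4 to 29.0 CPM in the controls and 12.5, 15.2, 10.1 and 6.48 CPM in the treated dams, a log2 difference of −0.90 ± 0.19 with an edgeR adjusted p of 0.104. DESeq2 gave it 0.0398, the lowest over all alternatives, which reached 1.00. Gcnt2, a glycan-branching enzyme, had 18.0 to 33.6 CPM in the controls and 12.6 to 16.6 CPM in the treated dams, a log2 difference of −0.76 ± 0.25 with an edgeR adjusted p of 0.396. AABR07071195.1, Trim36, LOC691918, AABR07017250.1, Reps2 and AABR07034641.1 had differences from −0.74 to −0.42. Without control dam 2070 the difference of AABR07071195.1 went from −0.74 to −0.32 and that of AABR07034641.1 from −0.42 to −0.22.

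The 2 genes called lower were read in block 140 alone. LOC499219, at 169145445 to 169152036 on chromosome 1 of rn6, had 20, 30 and 34 counts in the block 140 controls and 2 and 4 counts in dams 2080 and 2081. Olr1369, at 12508445 to 12509387 on chromosome 10, had 31, 35 and 31 counts in those controls and 2 and 4 in the same dams. In block 143 both had 0 counts in all 3 controls and both treated dams, where 3 counts would be 0.53 to 0.818 CPM. The log2 fold changes of −2.79 ± 0.51 and −2.99 ± 0.58 had edgeR adjusted p values of 0.0257 and 0.0404, and DESeq2 gave 0.321 and 0.353. Leaving out 1 library, the call was kept in 3 of 10 fits for LOC499219 and in none for Olr1369.

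Receptor genes as a group differed between the same libraries, and so did the number of genes with a count. That number was 19904 to 20260 in the block 140 controls and 16595 and 19396 in dams 2080 and 2081. In block 143 it was 12405 to 13002 over controls and treated dams. Olfactory, vomeronasal and taste receptor genes, which belong to sensory cells, summed to 3223 to 4361 CPM in the block 140 controls and to 797 and 2303 CPM in dams 2080 and 2081. In block 143 no control or treated library exceeded 60.4 CPM. Of 856 such genes tested, 269 were lower and 0 higher at an unadjusted p under 0.05. Of the 1184 genes lower at that level over all genes, 1065 had a mean log2 CPM under 3, and among the 5995 genes of at least 3 the median log2 fold change was 0.02. With the receptor sum as a covariate no gene was called, and the log2 fold changes were 4.58 for Cyp2b2, 2.95 for Cyp2b1 and 2.33 for Cyp3a23/3a1, each with an edgeR adjusted p of 0.0691. With the same covariate the log2 fold changes of LOC499219 and Olr1369 were −2.45 and −2.21, with edgeR adjusted p values of 0.155 and 0.615. With receptor genes left out, among them Olr1369, 5 genes were called, and LOC499219 was one of them with an edgeR adjusted p of 0.0218.

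**Figure D2:**
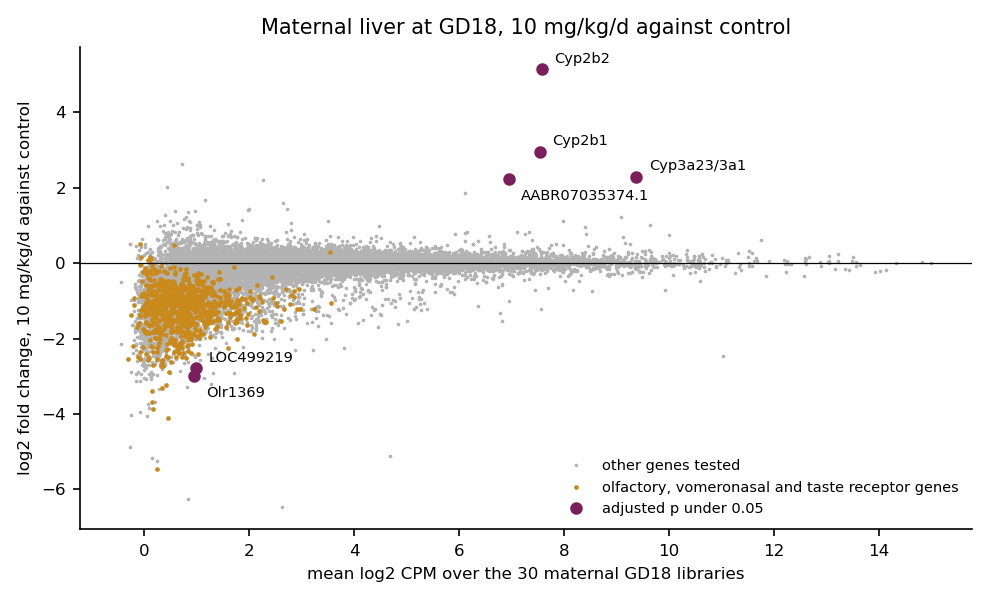
Log2 fold change at 10 mg/kg/d against control for each of the 13783 genes tested, against the mean log2 CPM over the 30 maternal GD18 libraries; receptor genes and the 6 called genes are marked. The 4 genes that rose stand apart above at mean log2 CPM near 7 to 9, and the receptor genes lie almost all below 0 at the low end.

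Liver identity did not separate the groups. The 18 hepatocyte markers summed to 42689 to 59732 CPM in the controls and 46043 to 58476 CPM in the treated dams, and none was called. Erythroid markers ran from 1624 to 7850 CPM in the controls and from 1742 to 3583 CPM in the treated dams, with 10 of 11 tested members of negative sign. Pancreas markers, 8 in the file with Pnlip and Cel at 0 in all 10 libraries, ran from 229 to 2012 and from 237 to 2381 CPM. Summed levels of macrophage, lymphocyte, endothelial, stellate and cholangiocyte markers overlapped between the groups as well. Neutrophil, placenta and adipose markers overlapped over all 10 libraries but not within 1 of the blocks. Placenta markers summed to 12.2 to 14.2 CPM in the block 140 controls and to 4.16 CPM in dam 2080, and dam 2081 lay below those controls too, with 0 CPM in all 5 libraries of block 143. Dams 2080 and 2081 also had fewer genes with a count and lower receptor sums than those controls. The part of that difference in the placenta sums was not tested. Neutrophil markers summed to 19.6 to 34.0 CPM in the block 143 controls and to 15.4 and 10.6 CPM in its treated dams. Adipose markers summed to 9.15 to 10.8 CPM in the block 143 controls and to 6.72 and 8.15 CPM in the same treated dams. In bulk liver, fewer cells of a type and less RNA per cell cannot be told apart. The part of other cell types in these results was not tested.

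The step from 10 to 30 mg/kg/d was tested as a contrast in the same fit over the 30 libraries, in which the controls enter the block term and the spread. It gave 21 genes (0.152%) past an adjusted p of 0.05, 18 higher (0.131%) and 3 lower (0.0218%) at 30 mg/kg/d. The 2 groups fitted alone gave 1 gene. Both comparisons use the 4 libraries at 10 mg/kg/d, and 3 genes were called in both. LOC499219 and Olr1369 had opposite signs in them, −2.79 and −2.99 against control and then 3.29 and 2.81 on the log2 scale, and the receptor sum in block 140 was 4447 and 5545 CPM at 30 mg/kg/d. Cyp3a23/3a1 had the same sign in both, and reached 3601, 2352, 4647 and 2440 CPM, a log2 fold change of 2.22 ± 0.46 with an edgeR adjusted p of 0.0381. All 4 dams at 30 mg/kg/d lay above dam 2125, the highest at 10 mg/kg/d.

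Cyp2b1 and Cyp2b2 did not pass the test between these doses. Cyp2b1 had 444, 1055, 1360 and 612 CPM at 30 mg/kg/d, all above the 10 mg/kg/d range, with a log2 fold change of 1.91 ± 0.56 and an edgeR adjusted p of 0.145. Cyp2b2 had 37.4 (dam 2082), 1404, 1558 and 631 CPM, and its log2 fold change of 1.87 ± 0.86 had an edgeR adjusted p of 0.249. Dam 2082 had less Cyp2b2 than any dam at 10 mg/kg/d, and it was the lowest of its group for both Cyp2b genes.

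The genes called higher at 30 than at 10 mg/kg/d were led by enzymes that had not been called at 10 mg/kg/d. Ephx1 had 384, 393, 565 and 383 CPM, a log2 fold change of 1.33 ± 0.19 with an edgeR adjusted p of 0.00119. Acot1 had 52.4, 26.6, 72.9 and 17.8 CPM, against 1.11 CPM or less in the 4 livers at 10 mg/kg/d, a log2 fold change of 6.28 ± 1.00 with an edgeR adjusted p of 0.00303. The dams at 3 mg/kg/d included 1, dam 2124, with 32.5 CPM of Acot1.

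Ehhadh reached 394, 169, 185 and 133 CPM (log2 fold change 1.56 ± 0.25, edgeR adjusted p = 0.00303) and Vnn1 reached 109, 91.5, 194 and 87.3 CPM (1.72 ± 0.27, edgeR adjusted p = 0.00291). Acot2, Aldh1a1 and Slco1a4 rose by 1.59 ± 0.27, 1.18 ± 0.24 and 1.14 ± 0.24 on the log2 scale. For Ephx1, Acot1, Ehhadh, Vnn1, Acot2, Aldh1a1 and Slco1a4, every dam at 30 mg/kg/d was above every dam at 10 mg/kg/d. Beyond the genes named so far, Zwint, Eci1, Ptges3, Gdf15, Adarb2, AABR07035074.1, AABR07067042.3 and AABR07000581.1 were called higher at 30 mg/kg/d. Their log2 fold changes ran from 0.52 for Ptges3 to 6.14 for AABR07035074.1. Only 3 called genes were lower at 30 mg/kg/d. Cbx6, a Polycomb chromatin gene, fell from 11.4 to 15.9 CPM at 10 mg/kg/d to 4.55 to 8.79 CPM, and Npc1, which exports cholesterol from lysosomes, and Dio1, which deiodinates thyroid hormone, fell by 0.64 and 0.78 on the log2 scale. At 10 mg/kg/d, Cbx6, Npc1 and Dio1 differed from control by 0.04 ± 0.18, 0.21 ± 0.11 and −0.03 ± 0.15. The count between these doses moved strongly with single libraries, from 4 without dam 2080 to 325 without dam 2081.

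**Figure D3:**
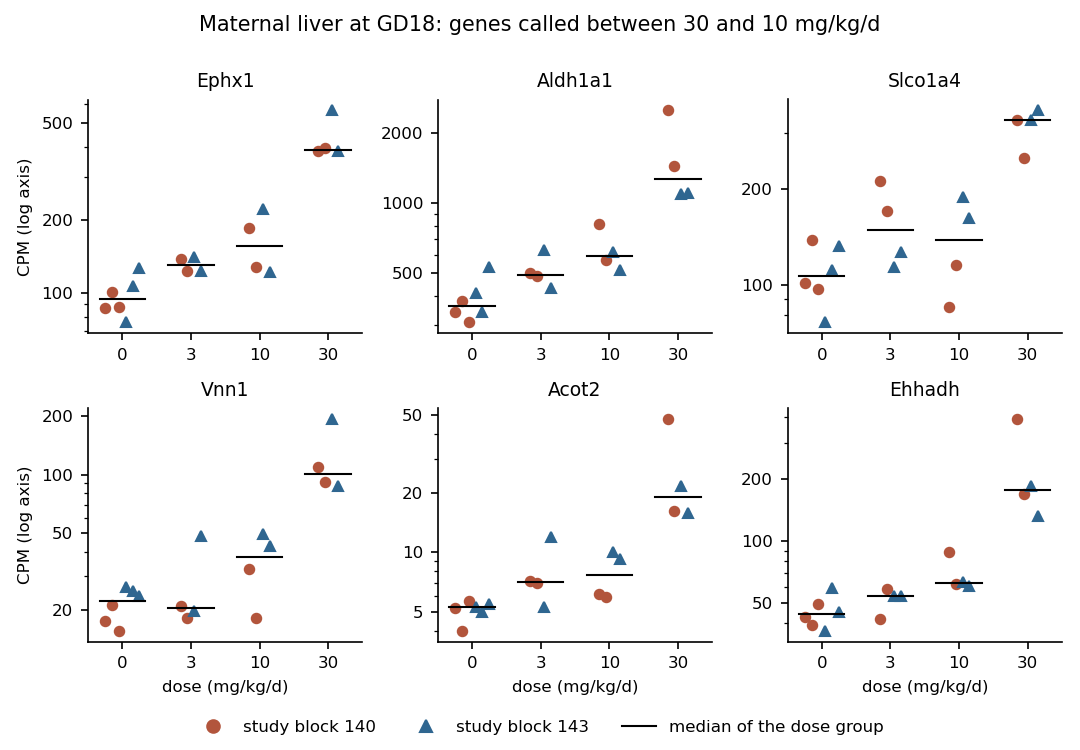
CPM on a log axis in each maternal GD18 library by dose for 6 genes called between 30 and 10 mg/kg/d; points are libraries, shape and colour give the study block, and lines are medians of a dose group. In each panel all 4 libraries at 30 mg/kg/d lie above those at 10 mg/kg/d. The libraries at 10 mg/kg/d lie within or above the control range, with Vnn1 and Aldh1a1 reaching 49.3 and 812 CPM against highest controls of 26.3 and 529 CPM.

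The inducible enzymes were measured at 3 mg/kg/d as well, in 4 dams. Cyp2b2 had 194, 182, 303 and 68.7 CPM, Cyp2b1 had 192, 128, 239 and 21.4 CPM, and Cyp3a23/3a1 had 457, 537, 558 and 338 CPM. All 3 overlapped the 10 mg/kg/d values, and the difference between these doses was not tested. Against control, which both doses share, their log2 fold changes at 3 mg/kg/d were 5.04 ± 0.89 for Cyp2b2, 2.35 ± 0.50 for Cyp2b1 and 1.93 ± 0.40 for Cyp3a23/3a1, with edgeR adjusted p values of 0.0558, 0.231 and 0.226.

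The same dose was given from GD17 to GD21 in other dams, of study block 144, with 3 dams at 10 mg/kg/d and 3 controls. The titles call their age GD21, while the age entry says GD20. There, 5 of 9238 genes tested (0.0541%) were called at 10 mg/kg/d, all higher, and 4 of them were the 4 genes that rose at GD18. Cyp2b1 rose by 4.16 ± 0.36 on the log2 scale (edgeR adjusted p = 3.72e-05), from 18.9 to 23.7 CPM in the controls to 339 to 408 CPM. Cyp2b2 rose by 4.14 ± 0.52, from 11.6 to 40.4 CPM to 369 to 677 CPM. Cyp3a23/3a1 rose by 3.08 ± 0.43, with 1152 to 1924 CPM in the treated dams. The fifth gene was Dhrs7l1, which rose by 3.39 ± 0.53 to 58.5 to 107 CPM, with an edgeR adjusted p of 0.0161.

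The difference of the 10 mg/kg/d response between the ages was tested over all 45 maternal libraries. No gene passed an adjusted p of 0.05 with edgeR (0 of 14621, 0%), 473 had an unadjusted p under 0.05, and DESeq2 called 1. The log2 fold change at GD18 less that at GD21 was −1.21 ± 0.75 for Cyp2b1, 1.01 ± 1.17 for Cyp2b2 and −1.53 ± 0.78 for Dhrs7l1. Age, days of dosing and study block cannot be told apart in this comparison. Slco1a4 was at 1.15 ± 0.29 at GD21 with an edgeR adjusted p of 0.729, and at 0.32 ± 0.22 at GD18.

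**Figure D4:**
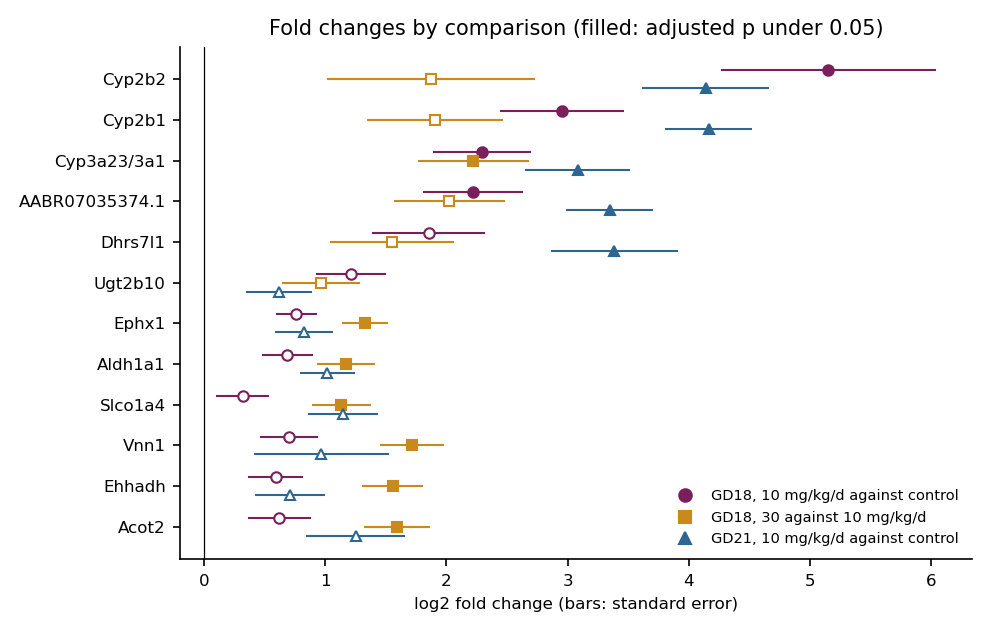
Log2 fold changes with standard errors for 12 genes in 3 comparisons: 10 mg/kg/d against control at GD18, 30 against 10 mg/kg/d at GD18, and 10 mg/kg/d against control at GD21; filled symbols passed an adjusted p of 0.05. The P450 genes lie at 2.22 or more at 10 mg/kg/d at both ages, and Ephx1, Aldh1a1, Slco1a4, Vnn1, Ehhadh and Acot2 are filled only for the step from 10 to 30 mg/kg/d.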

How the data were processed

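The TempO-Seq probes covered 21119 genes and reads had 50 bases, per the labels. The authors deposited estimated counts per gene and library, not normalised, of which 7.61% are not whole; the submitters' processing notes name STAR 2.7.3a, Partek and rn6 without roles. The other deposited file, which was not used for tests, holds the authors' log2 values of CPM with an offset of 0.0001; all 1631610 matched the counts within 0.01. Estimated counts were rounded and tested with edgeR 4.0.16 in R 4.3.3: filterByExpr by dose group, TMM factors, and quasi-likelihood F tests over all 30 maternal GD18 libraries with study block as a term, two-sided, with Benjamini-Hochberg adjustment over the 13783 genes tested and a threshold of 0.05. The SE is the log2 fold change over the square root of F, and the prior count was 0.125. CPM are estimated counts over the library total, times 1000000. The 10 libraries held 3667351 to 6409494 counts. Libraries of 1 group differed by a chi-square per degree of freedom of 14.1 to 39.9, so the differences between dams and not counting error set the precision. GD21 libraries were fitted apart, and the ages together for the difference.

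Named genes were all genes called; up to 8 highest and 8 lowest with mean log2 CPM of at least 3, an unadjusted p under 0.05 and no overlap between groups; the smallest p in each of 20 biology lists (3 in each CAR and PXR list); 27 fixed genes, of which Cyp3a2, Abcb1a, Abcc3 and Ugt1a1 are not analysed here; and up to 5 higher and 5 lower between 30 and 10 mg/kg/d. Names outside that rule are members of the lists at an unadjusted p under 0.05, Cyp2b12, or the remaining genes called between 30 and 10 mg/kg/d. Members and lists were chosen with earlier results of these data known. Of 544 list entries 464 are in the file. Simulated data for this comparison over 13264 genes held 50 genes each changed by 1, 2, 3 and −2 on the log2 scale, all of mean log2 CPM of at least 3. There, edgeR called 44 of the 50 genes changed by 1 and all 50 at each of 2, 3 and −2. Over the whole simulation, 17 unchanged genes were called as well. So many planted changes make the adjusted threshold easier to pass than in the real comparison. The rate therefore does not carry over to genes not called here, such as Ugt2b10 at 1.21 (edgeR adjusted p of 0.175). Alternatives were RLE factors, no filter, DESeq2 1.42.0, no block term, the 2 groups alone, each block alone, the receptor sum as a covariate, receptor genes left out, and each library left out. Promoter windows are from RefSeq (GRCr8).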

Additional observations from a re-analysis of the deposited data

Results flagged for a closer look

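Among 114 sets of libraries examined (the 57 named genes in the 6 controls and in the 4 dams at 10 mg/kg/d), 8 held a value far from the others of its group on the log2(CPM + 1) scale, where chance gives about 1 in 20. The sets share libraries and span both study blocks, so that rate is a rough guide, and 8 of 114 is not far from it. At 10 mg/kg/d, dam 2125 had 1719 CPM of Cyp3a23/3a1, next to 389 CPM in dam 2080. Dam 2080 had 1217 CPM of Cyp51, next to 611 CPM, and 88.6 CPM of Ehhadh, next to 63.6 CPM. Control dam 2070 stood apart for 4 genes: it had 106 CPM of AABR07071195.1 (next 40.2), 133 CPM of AABR07034641.1 (next 75.2), 16.7 CPM of LOC691918 and the lowest Acot2, 3.98 CPM (next 4.97). The same library had the highest erythroid and pancreas marker sums of the controls, 7850 and 2012 CPM, and their part in these values was not tested. Control dam 2116 had 1802 CPM of Cyp1a2, next to 1195 CPM.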

How the results depend on the processing

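The count at 10 mg/kg/d was 6 and stayed between 5 and 6 with RLE factors, no filter, DESeq2 or receptor genes left out. It was 0 without the block term, in block 140 alone, in block 143 alone and with the receptor sum as covariate, 1 with the 2 groups alone, and 0 to 7 with each library left out. The cause was not tested; block fits and the 2 groups alone have fewer libraries. Between 30 and 10 mg/kg/d, 21 genes became 33 with DESeq2, 6 without the block term, 1 with the 2 groups alone, 3 in block 140, 0 in block 143, 7 with the receptor covariate, and 4 to 325 with a library left out. At GD21, 5 became 62 without a filter and 3 to 6 with a library left out. For the difference of ages, 0 became 1 with DESeq2 and 0 to 1 with a library left out.

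Of the 1068 other values of named genes, 972 kept direction and side of the threshold. Signs turned only for genes not called. In block 140 alone the log2 difference was −0.00203 for Slco1a4, 0.0526 for Ppara, −0.00635 for Pdk4, −0.53 for Cyp1a1, 0.36 for Fmo1 and 0.19 for Dio1. In block 143 alone it was −0.26 for Abcc2, −0.0252 for Alas1, 0.70 for Acot1, 0.14 for Fabp1 and −0.14 for Cyp1a2. With the receptor covariate it was −0.0313 for Cpt1a, 0.0705 for Fmo1 and −0.00861 for Cbx6, and without the block term 0.0106 for Fabp1. With each library left out it ran from −0.10 to 0.13 for Fabp1, −0.17 to 0.15 for Dio1, −0.0852 to 0.55 for Abcc2, −0.63 to 0.0168 for Fmo1 and −0.0784 to 0.21 for Cbx6. No paired analysis was possible because the labels number dams and not replicates, and no dam is in both groups.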
